A study of Homo sapiens with 6 samples.

Results

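Collagen chains are the gene products that assemble, 3 at a time, into the triple helices of the collagens. All gene symbols of the deposited count table made of COL, a number, A and a number were taken as collagen chains, which gave 44 of the 37887 symbols listed. They were grouped as 11 fibrillar chains, 9 basement membrane chains and 24 other chains. A chain was called expressed at a mean of at least 1 CPM (its count as a share of the library total, with TMM scaling) over the 6 samples, and 24 of the 44 chains were. Another 14 chains were tested at a lower level, 5 had too few counts to be tested, and COL6A5 had no count in any library.

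RNA-seq was performed on BT-549, a human cell line established from a triple-negative breast cancer, with 3 control and 3 IRF1shRNA samples. Titles of the control samples name a control shRNA, whereas the series text describes a single line with a tetracycline-inducible IRF1 shRNA, given 0.1% DMSO (control) or 500 ng/ml doxycycline (IRF1shRNA). By the treatment labels doxycycline was given to the IRF1shRNA samples alone, so the effects of the drug and of the silencing cannot be told apart. A single shRNA in a single cell line was examined, and the cultures were grown in triplicate. Library totals were 55143808 to 160436234 counts, with IRF1shRNA replicate 2 the smallest, and 3 counts amounted to 0.0182 to 0.0540 CPM.

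Fibrillar collagens (types I, II, III, V, XI, XXIV and XXVII) form the fibrils that give tissue its tensile strength, and type V chains take part in starting fibrils and setting their diameter. Basement membrane collagens include the type IV network, the anchoring fibrils of type VII and the proteoglycan-like types XV and XVIII. The remaining collagens bind to fibrils, form beaded filaments or other networks, or span the cell membrane. Breast tumor cells of mesenchymal character can make collagens themselves, beside those made by the fibroblasts of a tumor.

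IRF1, the transcription factor of the interferon response targeted by the shRNA, was first examined in every sample. Its level was 45.3, 48.1 and 51.5 CPM in the control samples and 13.8, 14.9 and 14.6 CPM in the IRF1shRNA samples. The groups did not overlap (log2 fold change -1.74 ± 0.06 (SE), adjusted p = 4.53e-13). All adjusted p-values are from the quasi-likelihood test of edgeR, adjusted by the Benjamini-Hochberg method over the 18851 genes tested, and a gene was called changed at an adjusted p under 0.05. Of these genes 50.5% were called, 24.1% higher and 26.4% lower in the IRF1shRNA samples.

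Collagen chains moved in both directions. Of the 38 chains tested, 23 were called changed (60.5%, against 50.5% of all genes), with 13 higher and 10 lower in the IRF1shRNA samples. Among the 24 expressed chains 18 were called (75%), 10 higher and 8 lower, where 63.6% of all genes at a mean of at least 1 CPM were called, 29.3% higher and 34.2% lower. The groups did not overlap for 24 of the 38 chains tested, where 56.8% of all genes tested did not. The same held for 18 of the 24 expressed chains, or 75%, against 68.3% of all genes at that level. The median log2 fold change was 0.01 over the chains tested and -0.0024 over all genes tested, and the median size of the change, regardless of sign, was 0.48 and 0.28. At a mean of at least 1 CPM the median size was 0.35 for the chains and 0.24 for all genes. Past a 2-fold change as well there were 4 chains higher and 2 lower, or 6 of 38, where 7.86% of all genes tested passed both limits, 3.43% higher and 4.43% lower. A total of 36 of the chains tested passed the count filter in both groups, the remaining 2 were over the minimum throughout in neither group, and 0 passed through one group alone. Among the expressed chains, COL11A2 reached a mean of 1 CPM through its IRF1shRNA samples alone. Its group means were 0.573 CPM (control) and 1.79 CPM (IRF1shRNA), and it is included in the counts at that level.

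**Figure D1:**
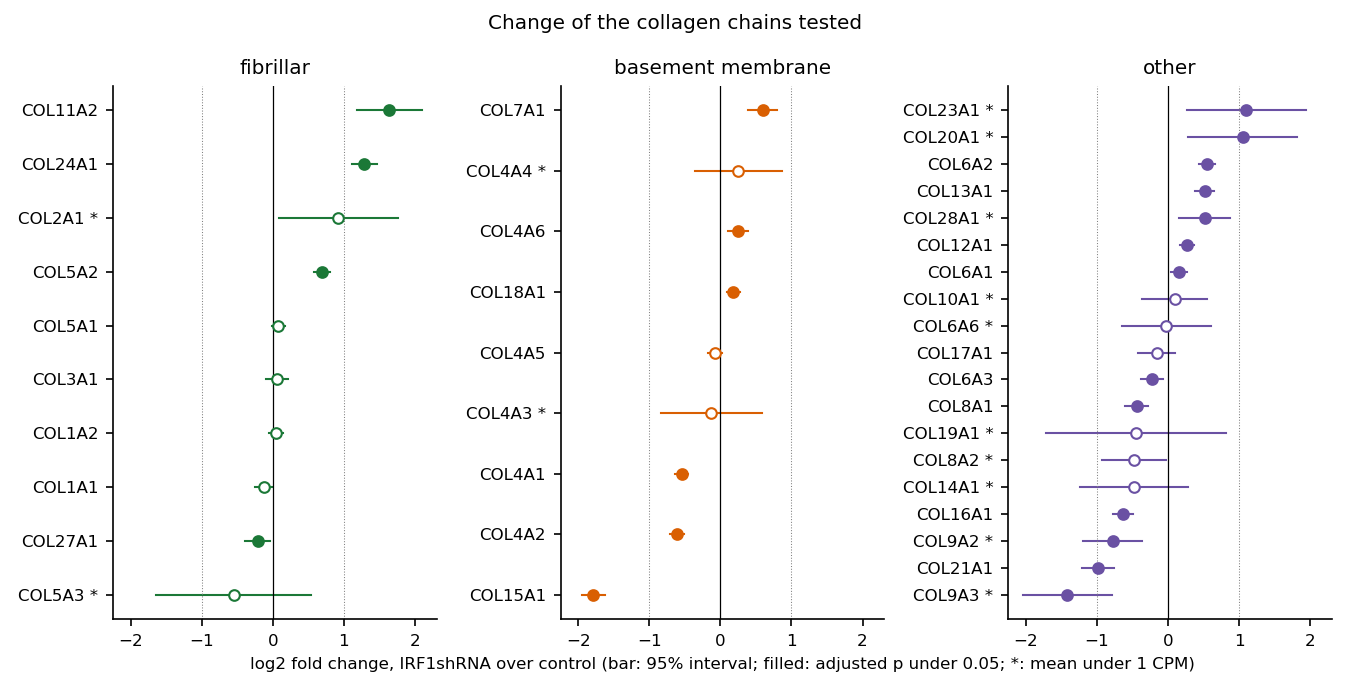
Log2 fold change of each of the 38 collagen chains tested (IRF1shRNA over control, horizontal axis) with its 95% interval, in 3 panels by class. Filled points have an adjusted p under 0.05, stars mark chains with a mean under 1 CPM, and dotted lines mark a 2-fold change. COL15A1 at -1.79 and COL11A2 at 1.64 lie at the ends of the range.

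Levels of different genes were compared after division by the exon length of each gene, as CPM per kilobase of exon in GENCODE release 29. By this measure the 4 most abundant chains were fibrillar. COL1A1 stood at a mean of 111 CPM per kilobase over the 6 samples and COL1A2 at 110.6, followed by COL5A2 at 96.0 and COL5A1 at 87.2. The next chain was COL15A1 at 38.3 CPM per kilobase, followed by COL6A1 at 36.4 and COL12A1 at 36.2. COL4A2 at 27.3, COL6A2 at 22.6, COL4A1 at 21.2 and COL3A1 at 19.3 CPM per kilobase came next, and no other chain was above 7.44, the level of COL4A5. Down to COL3A1, the ranges of neighbours in this order overlapped over the 6 samples, except that COL5A1 stood wholly above COL15A1. Union exon lengths include untranslated regions and rare exons, so these levels depend on the annotation. Of the 10 highest chains per kilobase, 9 were also among the 10 highest by CPM.

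**Figure D2:**
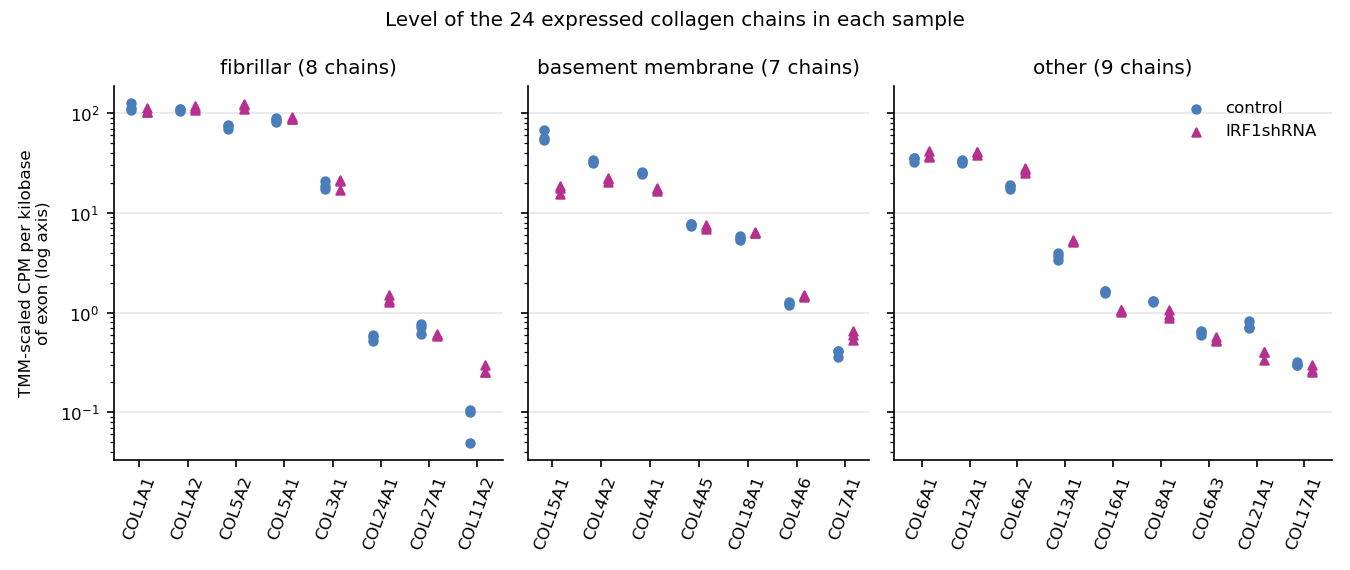
TMM-scaled CPM per kilobase of exon (vertical log axis) of the 24 expressed collagen chains, with 1 circle for each control sample and 1 triangle for each IRF1shRNA sample, in 3 panels by class and ordered by mean level. The type I and type V chains lie near 100 in both groups, and the triangles of COL15A1 lie far below its circles.

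Of the 4 most abundant fibrillar chains, COL5A2 alone was called changed. COL1A1, the alpha 1 chain of type I collagen, was at 1067, 1244 and 1102 CPM in the control samples and at 1017, 1001 and 1107 CPM in the IRF1shRNA samples. COL1A2, its partner chain, was at 1177, 1244 and 1220 CPM and at 1190, 1309 and 1263 CPM, respectively. The groups overlapped for both chains. Log2 fold changes were -0.13 (95% interval -0.25 to -0.01) for COL1A1 and 0.05 (-0.05 to 0.15) for COL1A2, with adjusted p-values of 0.0759 and 0.439. The COL1A1 value turned on single libraries. It passed the threshold without control replicate 1 or without IRF1shRNA replicate 3, at -0.17 in either case (adjusted p = 0.0237 and 0.0291), and with no filter (adjusted p = 0.00636), but was -0.06 without control replicate 2 (adjusted p = 0.490). COL3A1, the chain of type III collagen, was at 129 ± 11.8 CPM and 134 ± 16.6 CPM (SD, n = 3 each). Its log2 fold change of 0.06 (95% interval -0.10 to 0.21) was not called.

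COL5A2, the alpha 2 chain of type V collagen, rose. It was at 520, 563 and 561 CPM in the control samples and at 824, 931 and 895 CPM in the IRF1shRNA samples, with no overlap. The change was 0.69 ± 0.05 (SE) on the log2 scale, or 1.61-fold (adjusted p = 5.01e-09). COL5A1, its partner in the type V trimer, was at 949 ± 46.0 CPM and 1002 ± 21.97 CPM (SD, n = 3 each). Its groups overlapped, and the log2 fold change of 0.08 (95% interval -0.02 to 0.18) was not called. COL5A1 was called higher in 4 of 19 other settings. Scaling by library size alone gave 0.13 (adjusted p = 0.0186) and by the upper quartile 0.12 (adjusted p = 0.0322). A correction for GC content and length gave 0.15, without (adjusted p = 0.00517) and with a replicate block (adjusted p = 0.0013). COL5A2 lies at chr2:189031896-189225312 (GENCODE release 29, build GRCh38), next to COL3A1 at chr2:188974320-189012746, with 19149 bases between them.

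The 2 fibrillar chains with the highest fold changes were expressed at low levels. COL24A1, the chain of type XXIV collagen, was at 4.93, 5.69 and 5.49 CPM in the control samples and at 12.3, 14.3 and 12.7 CPM in the IRF1shRNA samples. All IRF1shRNA samples were above all control samples, and the log2 fold change was 1.28 ± 0.08 (SE), or 2.43-fold (adjusted p = 9.28e-10). COL11A2, the alpha 2 chain of type XI collagen, was at 0.682, 0.335 and 0.704 CPM and at 1.69, 1.69 and 1.99 CPM, respectively. The groups did not overlap, and the log2 fold change was 1.64 ± 0.22 (SE), or 3.12-fold (adjusted p = 6.36e-06). COL11A2 lies within the MHC region, at chr6:33162681-33192499. Whether the authors' reference held the alternate haplotypes of that region, to which its reads could also align, is not given in the sources used here.

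COL27A1, the chain of type XXVII collagen, was at 9.93, 10.6 and 8.53 CPM in the control samples and at 8.25, 8.18 and 8.60 CPM in the IRF1shRNA samples. It was the only fibrillar chain called lower, and its groups overlapped. Its log2 fold change was -0.21 ± 0.08 (SE, adjusted p = 0.0430). COL27A1 was no longer called in 16 of 19 other settings, including DESeq2 (adjusted p = 0.0534) and the omission of any single library other than control replicate 3. The highest adjusted p with a library left out, 0.231, was without control replicate 2. In total 3 fibrillar chains were called higher and 1 lower of 10 tested, or 40%, where 50.5% of all genes tested were called.

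Basement membrane chains held the steepest fall among the collagens. COL15A1, the core protein of the proteoglycan-like collagen XV found where basement membranes meet fibrils, was at 371, 362 and 452 CPM in the control samples. In the IRF1shRNA samples it was at 102, 119 and 123 CPM. The groups lay far apart, with the highest IRF1shRNA sample well below the lowest control sample. Group means were 395 ± 49.3 CPM and 114 ± 10.95 CPM (SD, n = 3 each), so that COL15A1 fell to 28.9% of control (log2 fold change -1.79 ± 0.08 (SE), adjusted p = 5.32e-12). It was called in 19 of 19 other settings, with log2 fold changes from -1.85 to -1.68. COL15A1 lies at chr9:98943179-99070792 on the plus strand, and 137 bases of its exons overlap those of the antisense gene AL136084.3. COL18A1, whose protein is the other proteoglycan-like collagen and the source of endostatin, was at 45.7, 49.6 and 47.9 CPM and at 54.1, 53.2 and 55.1 CPM, respectively. It rose without overlap, with a log2 fold change of 0.18 ± 0.05 (SE, adjusted p = 0.00252), and was at 0.28 under a correction for GC content and length. Of its exons, 1401 bases overlap SLC19A1 on the other strand. The counting was not stated to use strand, so reads of overlapping genes cannot be told apart.

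COL4A1 and COL4A2, whose products make up the most widespread type IV trimer, fell together. COL4A1 was at 360, 373 and 377 CPM in the control samples and at 243, 257 and 262 CPM in the IRF1shRNA samples. COL4A2 was at 612, 638 and 659 CPM and at 398, 426 and 429 CPM, respectively. Both chains were lower in all 3 IRF1shRNA samples than in any control sample. The log2 fold change was -0.54 ± 0.04 (SE, adjusted p = 1.45e-08) for COL4A1 and -0.61 ± 0.05 (SE, adjusted p = 6.56e-09) for COL4A2, which left 68.7% and 65.6% of control. Their genes lie head to head on chromosome 13 and are transcribed in opposite directions from start sites 127 bases apart in RefSeq (build GRCh38.p14). The following stretches between these start sites are shown because the 2 genes fell together, with a match to CCAAT and to GGGCGG in capitals (plus strand, at chr13:110307167-110307196 and chr13:110307207-110307236). GENCODE release 29 places the COL4A1 start further out, at base 110307233, so that the first stretch lies inside a COL4A1 exon there and the second almost wholly so. It also places the COL4A2 start further out, at base 110305812. In that release the 2 genes overlap, and both stretches lie within the COL4A2 gene.
COL4A1-COL4A2, CCAAT match: gggccgagctccCCAATttgttggcgctgc
COL4A1-COL4A2, GGGCGG match: ccggcggtgcgcGGGCGGcgcctcaaaggg
On either strand, CCAAT occurred in 34.6% of the 35116 RefSeq windows of 300 bases around a start site and GGGCGG in 45.0%.

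Of the other type IV chains, COL4A6 alone was called changed. COL4A5, on the X chromosome, was at 90.6 ± 2.22 CPM and 86.0 ± 4.80 CPM (SD, n = 3 each). Its groups overlapped, with a log2 fold change of -0.08 (95% interval -0.17 to 0.02). Its head-to-head neighbour COL4A6 was at 11.2, 11.6 and 11.8 CPM in the control samples and at 13.7, 13.4 and 13.8 CPM in the IRF1shRNA samples. COL4A6 rose without overlap, by 0.24 ± 0.07 (SE) on the log2 scale (adjusted p = 0.00511). COL4A3 and COL4A4, the chains of the kidney and lung network, were at 0.262 to 0.468 CPM and 0.252 to 0.524 CPM over the 6 libraries, and neither was called. Their log2 fold changes were -0.13 (95% interval -0.84 to 0.58) and 0.25 (-0.36 to 0.87), and both intervals include no change. The COL4A3 interval also spans the values of COL4A1 and COL4A2, whereas the COL4A4 interval lies above them. COL7A1, the chain of the anchoring fibrils of skin, was at 3.94, 4.58 and 4.53 CPM and at 6.55, 5.82 and 7.22 CPM, respectively. It rose by 0.60 ± 0.10 (SE) on the log2 scale (adjusted p = 5.22e-05), and its groups did not overlap. In total 3 of the 9 basement membrane chains were called higher and 3 lower, where 24.1% and 26.4% of all genes tested were.

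Type VI chains, which assemble into beaded filaments around cells, changed unequally. COL6A1 was at 171, 190.1 and 190.2 CPM in the control samples and at 200.2, 193 and 221 CPM in the IRF1shRNA samples. COL6A2 was at 92.9, 101 and 103 CPM and at 145, 134 and 153 CPM, respectively. COL6A3, the longest of these chains, was at 11.8, 12.97 and 12.6 CPM and at 10.1, 10.5 and 11.2 CPM. The groups did not overlap for any of the 3 chains. COL6A2 rose by 0.54 ± 0.05 (SE) on the log2 scale (adjusted p = 1.43e-07). COL6A1 rose by 0.16 ± 0.05 (SE, adjusted p = 0.0241), a call lost without control replicate 1 (0.11, adjusted p = 0.138) or without IRF1shRNA replicate 3 (0.09, adjusted p = 0.183), while the GC and length correction gave 0.25 (adjusted p = 3.14e-05). COL6A3 fell by 0.23 on the log2 scale (SE 0.07, adjusted p = 0.0132), and was not called without control replicate 2 (-0.20) or without IRF1shRNA replicate 1 (-0.20), each with an adjusted p of 0.07, nor with library size as the only scaling (adjusted p = 0.0509) or every library thinned to the smallest (adjusted p = 0.0933). COL6A6 was at 0.342 to 0.852 CPM over the 6 libraries and was not called. COL6A5 had 0 counts, where 3 counts would be 0.0540 CPM in the shallowest library. Both mates of a pair appear to have been counted, so the level that counting error allows is higher than that.

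Fibril-associated chains, which sit on the surface of fibrils and have interrupted triple helices, moved in both directions. COL12A1, the most abundant of them, was at 409.8, 427 and 393 CPM in the control samples and at 475, 505 and 504 CPM in the IRF1shRNA samples. COL16A1 was at 15.1, 15.3 and 14.5 CPM and at 9.39, 9.75 and 9.81 CPM, respectively. COL21A1 was at 5.87, 5.002 and 5.10 CPM and at 2.38, 2.85 and 2.87 CPM. Replicates lay close together for each chain, and the groups did not overlap. COL12A1 rose by 0.27 ± 0.05 (SE) on the log2 scale (adjusted p = 7.49e-05), while COL16A1 and COL21A1 fell, with log2 fold changes of -0.63 ± 0.07 (SE, adjusted p = 4.23e-07) and -0.98 ± 0.11 (SE, adjusted p = 5.12e-07). For COL16A1, 117 bases of exon overlap the antisense gene AC114488.2.

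COL8A1, which forms the network of type VIII collagen under endothelia, was at 11.9, 12.4 and 12.3 CPM in the control samples and at 8.33, 9.945 and 8.90 CPM in the IRF1shRNA samples. It fell without overlap, with a log2 fold change of -0.44 ± 0.08 (SE, adjusted p = 0.000112). COL13A1, a membrane-spanning chain found at cell adhesions and neuromuscular junctions, was at 21.7, 19.8 and 23.1 CPM and at 31.7, 30.7 and 30.1 CPM, respectively. COL13A1 rose without overlap by 0.52 ± 0.06 (SE) on the log2 scale (adjusted p = 2.90e-06).

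COL17A1, the membrane-spanning chain of hemidesmosomes in epithelia, was at 2.16 ± 0.0937 CPM and 1.93 ± 0.161 CPM (SD, n = 3 each). All IRF1shRNA samples were below all control samples, but the log2 fold change of -0.16 (95% interval -0.42 to 0.10) was not called (adjusted p = 0.298). Its upstream sequence is shown because it holds the single match among the collagen windows to a pair of GAAA repeats with any 2 bases between them, the core of the elements bound by interferon regulatory factors. RefSeq windows of 250 bases before to 50 after the start were at hand for 32 chains, in 44 windows, and 1 of these held the motif on either strand, against 3.57% of the 35116 windows. The motif was not found in the windows of COL15A1, COL4A1, COL4A2, COL24A1 or COL11A2, which says only that these letters are not in those windows. The windows of COL15A1, COL4A1 and COL4A2 lie wholly or in part inside first exons of GENCODE release 29. Those of COL15A1 and COL4A2 cover nothing upstream of the starts annotated there. The COL4A1 window, chr13:110307108-110307407, covers bases on both sides of the start annotated there, base 110307233. The stretch of 173 bases lies at chr10:104085958-104086130 (build GRCh38.p14) and is printed on the minus strand, 5′ to 3′, with the match, which reads on the opposite strand, in capitals.
COL17A1: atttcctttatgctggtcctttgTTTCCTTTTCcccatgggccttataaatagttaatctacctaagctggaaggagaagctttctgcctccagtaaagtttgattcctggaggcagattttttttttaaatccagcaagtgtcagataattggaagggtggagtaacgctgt

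Of the 14 chains tested with a mean under 1 CPM, 5 were called (35.7%), against 21.0% of all genes tested at that level. COL9A3, a chain of the fibril-associated type IX collagen of cartilage, was at 0.690, 0.588 and 0.557 CPM in the control samples and at 0.278, 0.108 and 0.249 CPM in the IRF1shRNA samples. It fell without overlap, with a log2 fold change of -1.42 ± 0.30 (SE, adjusted p = 0.000633), and its partner COL9A2 also fell, at -0.78 ± 0.20 (SE, adjusted p = 0.00294). COL23A1, a membrane-spanning chain, was at 0.0811, 0.171 and 0.127 CPM and at 0.286, 0.180 and 0.322 CPM, respectively, and the gap between the groups was narrow. Its log2 fold change was 1.10 ± 0.40 (SE, adjusted p = 0.0281). COL20A1, a fibril-associated chain, was at 0.235, 0.163 and 0.121 CPM and at 0.405, 0.234 and 0.395 CPM, with overlapping groups and a log2 fold change of 1.05 ± 0.36 (SE, adjusted p = 0.0226). The third chain called higher was COL28A1, at 0.52 ± 0.17 (SE, adjusted p = 0.0169).

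The low-level calls differed in how firm they were. COL9A2 and COL9A3 were each called in 17 of 18 other settings, all but the test against a 2-fold change. COL20A1 and COL23A1 were each called in 11 of 18 other settings. COL20A1 was not called without control replicate 2 or 3 or without IRF1shRNA replicate 1 or 3 (log2 fold changes 0.84 to 1.02). COL23A1 was not called without control replicate 1 or 3 or without IRF1shRNA replicate 1 or 3 (0.87 to 1.11), nor by DESeq2. COL28A1 was not called without control replicate 2 (0.47) or without IRF1shRNA replicate 1 (0.50). The 9 chains under 1 CPM that were tested and not called were COL2A1, COL4A3, COL4A4, COL5A3, COL6A6, COL8A2, COL10A1, COL14A1 and COL19A1, with group means from 0.0728 to 0.765 CPM. COL11A1, COL9A1, COL22A1, COL25A1 and COL26A1 were not tested and reached at most 0.0972 CPM in a library.

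Summed over all 44 chains, collagen transcripts stayed close to the same share of the library while their makeup shifted. The sum was 6316 ± 240.4 CPM in the control samples and 6199 ± 228 CPM in the IRF1shRNA samples (SD, n = 3 each), or 98.1% of control, with overlapping groups. This small difference had no stable sign, since it was 101.7% with library size as the only scaling and 100.1% without IRF1shRNA replicate 1. Sums are given as a description, with no test.

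By class the sums differed. Basement membrane chains summed to 1557 ± 78.5 CPM and 947 ± 42.5 CPM, or 60.9% of control, without overlap. Fibrillar chains were at 108.7% of control, with overlapping groups (111.2% per kilobase of exon, without overlap), and other chains at 119.1%, without overlap. Per kilobase of exon, basement membrane chains made up 21.0% of all collagen transcripts in the control samples and 11.3% in the IRF1shRNA samples. Fibrillar chains made up 63.95% and 70.7%. The pair of type I chains made up 35.6% and 34.4%. Single chains carried most of both shifts. COL15A1 went from 59.4 to 17.2 CPM per kilobase, within a basement membrane sum that went from 132 to 71.8, and COL4A1 and COL4A2 held nearly all the rest of that difference. COL5A2 went from 73.5 to 118.5 CPM per kilobase, within a fibrillar sum that went from 403 to 449.

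**Figure D3:**
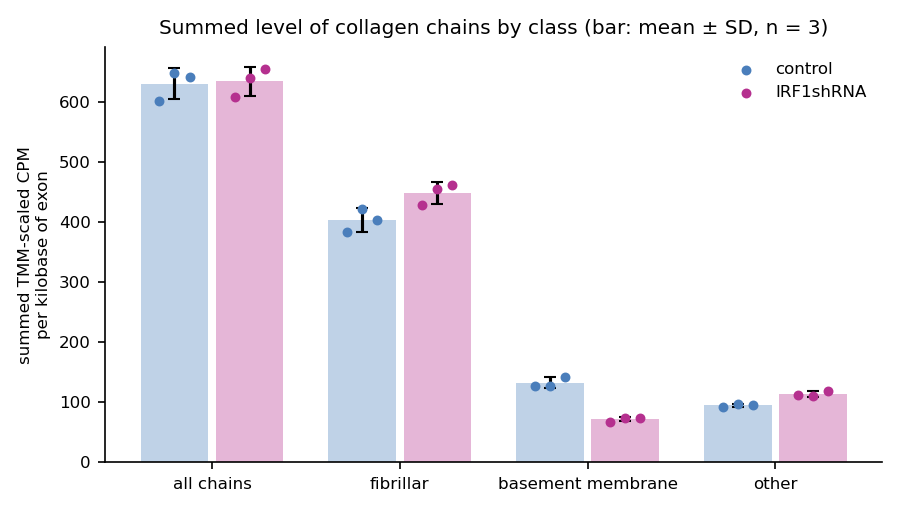
Summed TMM-scaled CPM per kilobase of exon (vertical axis, from 0) over all collagen chains and over each class, for the control and the IRF1shRNA samples. Bars are means with SD (n = 3) and points are samples. The sum over all chains was 630.6 in the control and 634 in the IRF1shRNA samples, and that of the basement membrane chains 132 and 71.8.

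Proportions between partner chains were also compared, as a description. The ratio of COL5A1 to COL5A2, per kilobase, was 1.16, 1.18 and 1.13 in the control samples and 0.800, 0.707 and 0.764 in the IRF1shRNA samples, so that COL5A2 went from the less to the more abundant chain by this measure. By CPM, not divided by length, COL5A1 was the higher of the pair in both groups. COL6A1 over COL6A2 went from 1.87 ± 0.0241 to 1.43 ± 0.0319, and COL6A2 over COL6A3 from 28.98 ± 0.792 to 49.6 ± 2.74 (SD, n = 3 each). The ratio of COL4A1 to COL4A2 moved little, from 0.762 ± 0.0104 to 0.797 ± 0.00504. That of COL15A1 to COL18A1 went from 10.6 ± 1.37 to 2.71 ± 0.253. COL1A1 over COL1A2 went from 1.06 ± 0.0626 to 0.945 ± 0.0671, although neither chain was called. Groups did not overlap for any of these ratios, which were chosen after the values of the chains had been seen and are given with no test.

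**Figure D4:**
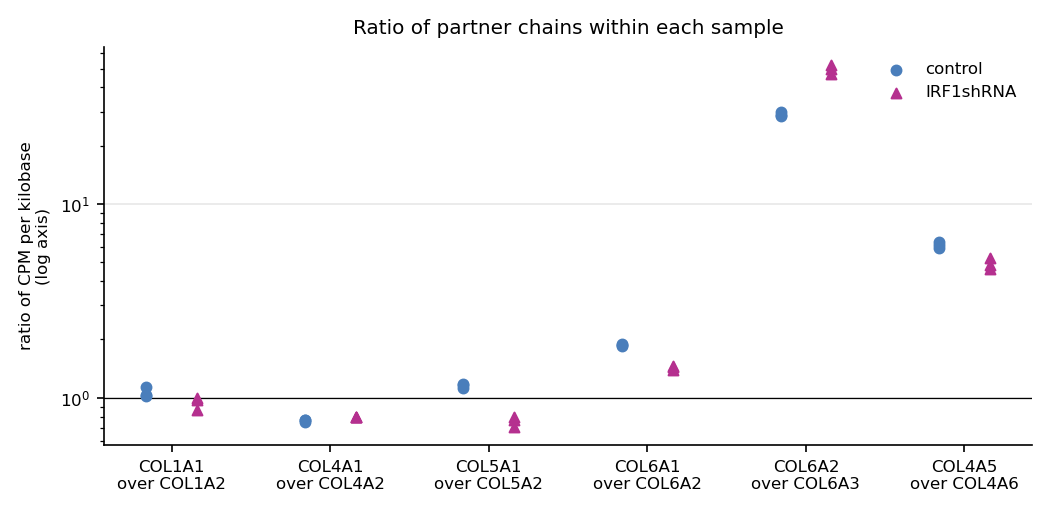
Ratio of the levels per kilobase of partner chains within each sample (vertical log axis) for 6 pairs, with circles for control and triangles for IRF1shRNA samples. A ratio of 1 is marked by the horizontal line, which COL5A1 over COL5A2 crosses, from 1.15 on average in the control samples to 0.757.

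Genes that fold and modify the collagen chains in the endoplasmic reticulum were examined next, and all 19 were called, 8 higher and 11 lower, where 63.6% of all genes at a mean of at least 1 CPM, as all 19 were, were called. CRTAP, a subunit of the prolyl 3-hydroxylase complex, was at 205, 215 and 221 CPM in the control samples and at 74.9, 80.8 and 76.3 CPM in the IRF1shRNA samples. PLOD2, which hydroxylates telopeptide lysines for crosslinking, was at 269.7, 260.0 and 246 CPM and at 99.97, 109 and 106 CPM. Both fell without overlap, with log2 fold changes of -1.47 ± 0.05 and -1.31 ± 0.05 (SE), and P3H2, a prolyl 3-hydroxylase, fell at -0.90 ± 0.05 (SE). Higher members were smaller in change, at most 0.46 for P3H1, which shares the CRTAP complex. The median log2 fold change of the list was -0.23, against -0.0024 over all genes tested.

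Of 18 genes of procollagen export, processing and crosslinking, 6 were higher and 10 lower (88.9% called, against 50.5% of all genes tested). At a mean of at least 1 CPM, the level of 14 of the 18, 63.6% of all genes were called. ADAMTS14, a procollagen N-proteinase, fell from 9.15 ± 0.970 CPM to 4.05 ± 0.679 CPM (log2 fold change -1.15 ± 0.11), whereas ADAMTS3, of the same group of proteinases, rose at 0.67 ± 0.08. PCOLCE2, an enhancer of the C-proteinase, fell at -0.75 ± 0.06. Among 11 receptors tested, 1 was higher (ITGA10, a collagen-binding integrin subunit, 0.63 ± 0.07) and 4 were lower, led by the proteoglycan SDC1 at -1.28 ± 0.05 and the collagen-activated kinase DDR1 at -0.57 ± 0.07. Errors are SE.

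Among 10 genes of collagen degradation, 2 were higher and 6 lower (80% called, against 50.5% of all genes tested). At a mean of at least 1 CPM, the level of 9 of the 10, 63.6% of all genes were called. MMP1, interstitial collagenase, was at 14.1, 12.5 and 15.4 CPM in the control samples and at 6.25, 5.42 and 5.21 CPM in the IRF1shRNA samples, and fell at -1.31 ± 0.09 (SE). MMP9, a gelatinase, was at 0.625, 0.734 and 0.865 CPM and at 2.93, 2.32 and 3.28 CPM, and rose at 1.95 ± 0.16 (SE). The groups did not overlap for either, and FAP, a surface protease, fell at -1.04 ± 0.17 (SE). MMP9 reached a mean of 1 CPM through the IRF1shRNA samples alone (group means 0.741 and 2.84 CPM). FAP did so through the control samples alone (1.70 and 0.817 CPM).

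Transcripts of matrix proteins that bind collagen were mostly lower, with 1 of 14 genes higher and 10 lower. Of all genes tested 24.1% were higher and 26.4% lower. BGN, the small proteoglycan biglycan, fell at -1.17 ± 0.14, VCAN (versican) at -1.09 ± 0.06 and THBS1 (thrombospondin 1) at -0.84 ± 0.05 on the log2 scale (SE). The median of this list was -0.35, the lowest of the 6 lists. Of 16 TGF-beta ligands, receptors and regulators of collagen genes, 3 were higher and 7 lower. TGFB1, the growth factor best known for inducing collagens, was at 51.8, 59.2 and 60.4 CPM and at 29.02, 23.4 and 27.9 CPM, and fell at -1.09 ± 0.07 (SE). CIITA, the transactivator of MHC class II genes, fell at -1.28 ± 0.09 (SE). Lists moved with many other genes, since 50.5% of all genes tested were called. At a mean of at least 1 CPM 63.6% of all genes were called, 29.3% higher and 34.2% lower. Of the genes tested, 45.5% of the receptors, 78.6% of the collagen-binding matrix and 62.5% of the TGF-beta and regulator list were called.

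**Figure D5:**
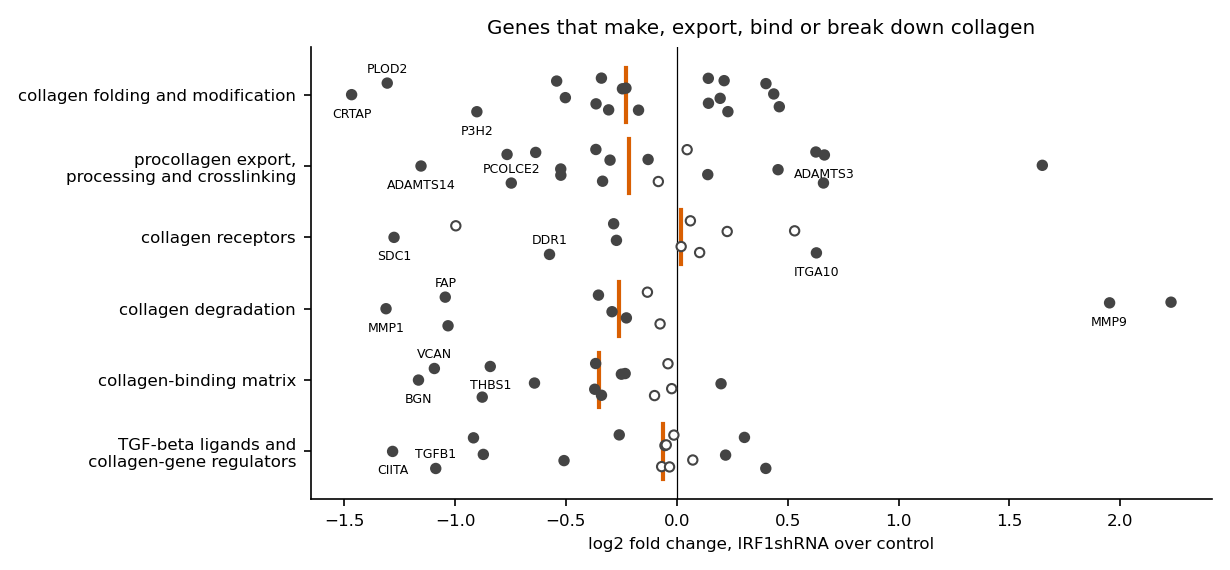
Log2 fold change (IRF1shRNA over control, horizontal axis) of the tested genes of 6 lists, 1 row a list, with filled points for an adjusted p under 0.05, an orange line at the list median and the genes named in the text for their change labelled. In the bottom row 1 gene is not shown, though the median includes it. Vertical position within a row has no meaning. Points of the collagen-binding matrix lie mostly left of 0, down to -1.17 for BGN.

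The labelled cell line was checked against cell type markers. All 6 mesenchymal markers of BT-549 were expressed, and their sum was 1661 to 1749 CPM in the control samples and 1380 to 1457 CPM in the IRF1shRNA samples, with 3 called lower. Epithelial markers were low, with a sum of 8.75 to 9.16 CPM and 4.20 to 4.72 CPM, mostly from the keratin KRT18, and 2 of 5 tested were lower. Leukocyte markers summed to 2.82 to 3.21 CPM and 3.57 to 4.32 CPM, with 1 of 3 tested higher, and endothelial markers to at most 0.930 CPM in a library, with the 1 gene tested lower. Of all genes tested 50.5% were called, or 63.6% at a mean of at least 1 CPM and 21.0% under it.

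Markers of fibroblasts, which are the main collagen producers in tissue, moved with the groups. They summed to 269.5 to 296.5 CPM in the control samples and 195 to 213 CPM in the IRF1shRNA samples. Almost all of it was THY1, at 274 and 202 CPM on average. Of the 7 tested, 5 were lower and none higher, where 26.4% of all genes tested were lower and 24.1% higher. DCN was below 1 CPM in both groups, and PDPN had a mean of 0.00447 CPM in the control samples and 0.0240 CPM in the IRF1shRNA samples. No marker of these 5 lists was at 0 in all 6 libraries. The part of these markers in the lower levels of COL15A1, COL4A1 and COL4A2 was not tested. In bulk RNA, fewer cells of a kind and less RNA per cell cannot be told apart.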

How the data were processed

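Total RNA of BT-549 cells was sequenced from TruSeq Stranded mRNA libraries. The deposited values are whole-number counts per gene, which the authors had not normalized. The submitters' processing notes name CASAVA 1.8.2, STAR 2.7.9a, featureCounts, DESeq2 1.24.0 and build GRCh38.p7, whereas the annotation release and the strand setting are not given in the sources used here. Of the counts from 2 to 11, 72.1% to 75.2% per library were even, so both mates of a pair appear to have been counted, and p-values were also computed from halved counts.

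Counts were analysed with edgeR 4.0.16 (R 4.3.3, limma 3.58.1), with TMM scaling, filterByExpr at a minimum count of 10, the quasi-likelihood test with group as the single factor, and Benjamini-Hochberg adjustment. The procedure was tested on simulated data. DESeq2 1.42.0 was an alternative, with other scalings, filters and thresholds, a test against a 2-fold change, thinning, each library left out, a replicate block, and a correction for GC content and length, the last chosen after seeing the data. The SE is the log2 fold change divided by the square root of F. Exon lengths are from GENCODE release 29, promoters from RefSeq (GRCh38.p14).

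Collagen chains, their classes, the 6 lists of collagen-related genes and the 5 marker lists were chosen with earlier results of these data known. Values by sample are given for called chains at a mean of at least 1 CPM and the 3 most abundant of each class. Under 1 CPM, those called past 2-fold are named, and COL9A2 and COL28A1 were added after their values were seen. In each list the 3 called genes of largest change at a mean of at least 1 CPM are named, except 1 gene that is not reported here, and P3H1, KRT18, THY1, DCN and PDPN were added after their values were seen. Floors of 3 counts cover counting error only, and are too low where both mates of a pair were counted.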

Additional observations from a re-analysis of the deposited data

How the results depend on the processing

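Directions and calls of the expressed chains mostly held. Over the log2 fold changes of the named genes, 810 values under an alternative kept both direction and side of the threshold, 70 lost the call, 7 gained it and 2 changed sign, both of COL3A1, which was never called (-0.0012 without control replicate 1 and -0.0043 without IRF1shRNA replicate 3, where the highest value with a library left out was 0.15). COL15A1, COL24A1 and COL11A2 were called in all 19 alternatives. Of the counts and sums that answer a comparison, 464 stayed close, 50 moved and 2 reversed. No scaling moved the median of all genes by more than 0.1, the highest being 0.049 with library size alone.

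The test against a 2-fold change (glmTreat) left 127 genes higher and 377 lower, and 2 collagen chains higher and 1 lower, also among those past 2-fold. It left 0 fibrillar chains lower, 0 basement membrane chains higher and 1 lower, and 0 other chains in either direction. For the lists it left, higher and lower, 0 and 2 genes of folding and modification, and 0 and 0 of export, processing and crosslinking. It left 0 and 1 of receptors, 0 and 0 of collagen-binding matrix, and 0 and 1 of TGF-beta and regulators. Of the genes of degradation it left 1 lower, and MMP9 was still called higher.

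The single fibrillar chain called lower, COL27A1, made that count 0 with DESeq2, upper quartile scaling, library size only, a filter of 1 CPM, halved counts, thinning, the GC and length correction and a threshold of 0.01, and it was 2 with no filter. Past 2-fold, 2 chains were higher and 1 lower with the 1 CPM filter, which tests fewer chains, and 2 higher at 0.01, where 3 other chains were higher. That filter also left 1 gene of degradation higher. The GC and length correction gave 5 fibrillar chains higher and 2 receptors higher. With library size only, the sum of all chains was 101.7% of control and that of other chains 123.3%. Except for the smaller number of chains under the 1 CPM filter, the cause was not tested.

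With 1 library left out, fibrillar chains lower ranged from 0 to 1, other chains higher from 4 to 7, chains past 2-fold higher from 2 to 5, and the sum of all chains from 96.1% to 100.1% of control. The lowest of these for other chains came without IRF1shRNA replicate 1 or 3, and for chains past 2-fold without either of these or control replicate 3.

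Deviations of same-numbered samples correlated at 0.0137, 0.0250 and -0.0072, so the numbers were not taken as pairs. With the replicate block, 13 chains were higher and 9 lower, fibrillar chains lower were 0 (with and without the GC and length correction, where receptors higher were 2), COL27A1 was at -0.21 (adjusted p = 0.0565 by edgeR) and no other named gene changed its call. Thinning to the smallest library ended the calls of COL27A1, COL6A3 and COL20A1.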
